A study of Mus musculus with 6 samples.

Results

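Granule and receptor genes of neutrophils were followed in lung cells of Bmi1 wild-type and Bmi1 null mice, with 10 genes listed and 8 of them measured. The list held Ltf, Ngp and Camp, whose proteins are packed into the specific granules, S100a8 and S100a9, Asprv1 and Retnlg, and the receptor genes Cxcr2, Csf3r and Fpr1. A gene was taken as measured when a probe set of the array carried its symbol alone in the platform annotation. This gave 8 probe sets, 1 for each of 8 genes, of 18193 genes on the array, while Retnlg and Fpr1 had none and have no values here. The cells came from lungs of female mice aged 4 months on a mixed Bl6/129 background, of genotype Bmi1 wild-type or Bmi1 null (titled mutant), with 3 arrays each. Live cells lacking CD31, the endothelial marker, and CD45, the marker of blood cells, were collected by flow cytometry. Neutrophils carry CD45. The labels name the arrays of a genotype biological replicates without saying whether an array is 1 mouse or a pool, and p-values therefore measure the spread between these samples. They also do not say which part of Bmi1 the null allele lacks or whether it is lost in all cells.

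Neutrophils mature in the bone marrow through stages that each make a different set of proteins. Promyelocytes make the primary granule enzymes, such as myeloperoxidase and neutrophil elastase. Myelocytes and metamyelocytes then make the specific granule proteins, such as lactoferrin and cathelicidin, under the transcription factor C/EBP epsilon, and stop transcribing most of these genes as the nucleus becomes segmented. Band and segmented neutrophils raise the receptors that let them leave the marrow and follow chemokines and bacterial peptides into tissue. In the lung, mature neutrophils linger in the capillaries, and more enter the airspaces in inflammation. The comparison asks whether genes of the granule-forming stage and of the mature stage differed together between the genotypes. In such bulk samples a change in the number of cells of a type and a change in RNA per cell cannot be told apart.

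The arrays had a common scale, with a trimmed mean signal of 499.87 to 499.88 and a median of 97.4 to 114. Log2 signals correlated at 0.978 to 0.979 between wild-type arrays, at 0.970 to 0.978 between mutant arrays and at 0.957 to 0.973 across the genotypes. The label mutant was not borne out by a lower Bmi1 signal, and directions rest on the labels alone. The brighter Bmi1 probe set read 996, 980 and 1164 in wild type and 1276, 1498 and 1565 in mutant (limma adjusted p = 0.282). It was higher in mutant with no overlap, while a second probe set overlapped. The second read 545, 535 and 684 in wild type and 637, 535 and 824 in mutant (log2 difference 0.16). A probe outside the deleted part would check nothing. Ptprc, which encodes CD45, read 6639 to 8507 in wild type and 5048 to 6708 in mutant (log2 difference -0.42, adjusted p = 0.369). A dimmer Ptprc probe set read 818 to 1556 in wild type and 347 to 1326 in mutant (-0.77). Pecam1, which encodes CD31, read 1907 to 2829 and 2691 to 3185 (0.40, adjusted p = 0.427), so RNA of both gated proteins was bright in both genotypes. All values below are probe-set signals on the arrays' linear scale, differences are mutant minus wild type in log2(signal + 16) with limma's standard error, and called genes are those with an adjusted p under 0.05 over all 18193 genes.

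All 8 measured genes had a higher mean signal in the mutant arrays, by 2.19 to 11.2 times, and 2 of them, Ltf and Asprv1, rose by limma at an adjusted p under 0.05. Over all genes tested, 0.412% were called higher and 0.923% in either direction. At an unadjusted p under 0.05, 7 of the 8 were higher, against 7.51% of all genes. In 6 of the 8 (Ltf, S100a8, S100a9, Asprv1, Cxcr2 and Csf3r) each mutant array lay above each wild-type array, which held for 10.4% of all genes, while 20.5% did not overlap in either direction. In Ngp and Camp the genotypes overlapped, because mutant replicate 2 lay within the wild-type range. The median log2 difference of the 8 genes was 1.56, against 0.0059 over all genes. These genes were proposed with results of the same arrays known, so the counts describe them and are no independent test.

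**Figure D1:**
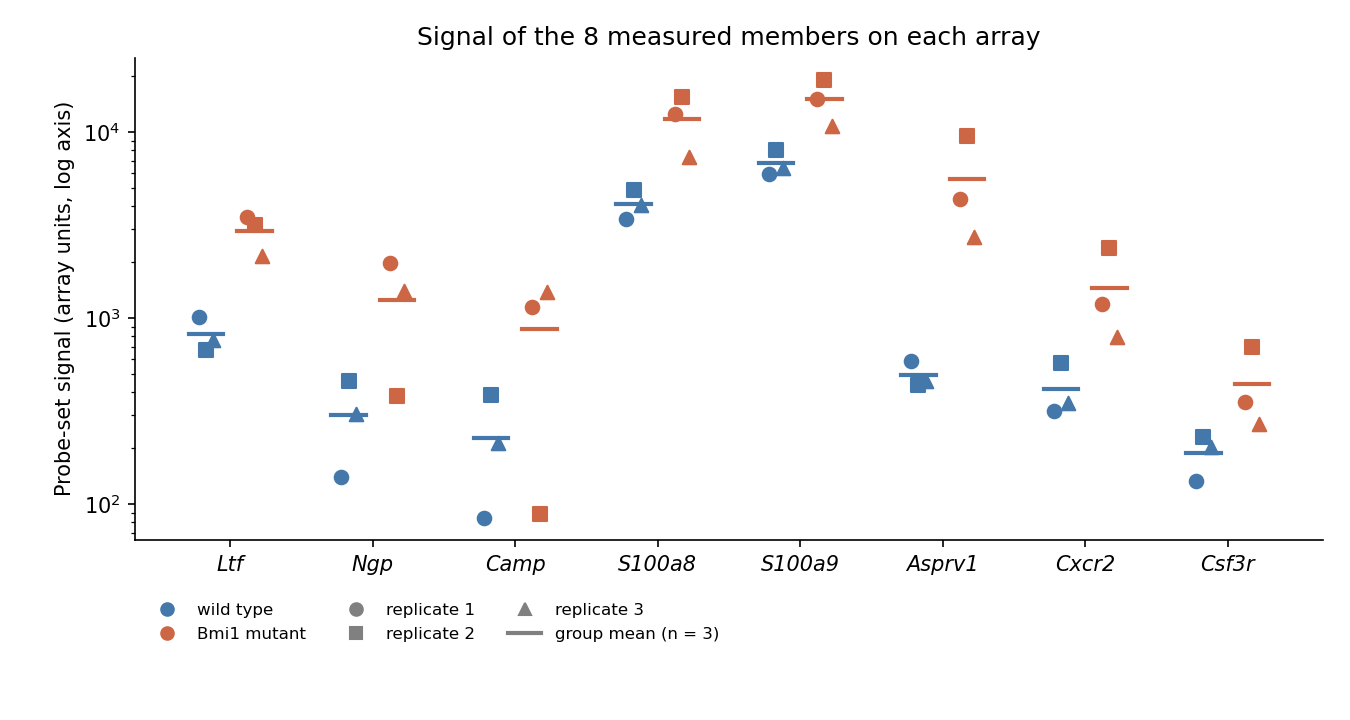
Probe-set signal (log axis, array units) of the 8 measured genes on each array; blue marks wild type, orange mutant, the symbol the replicate number and the bar the mean of 3 arrays. Mutant replicate 2, the orange square, is the highest array for S100a8, S100a9, Asprv1, Cxcr2 and Csf3r and falls among the wild-type arrays for Ngp (382) and Camp (89.0).

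Ltf encodes lactoferrin, an iron-binding protein of the specific granules that mucosal glands also secrete. Its signal, in the order of the replicate numbers, was 1018, 672 and 767 in wild type and 3490, 3168 and 2169 in mutant. The genotypes were far apart, with the lowest mutant array above the highest wild-type array. Ltf rose from a mean of 819 (SD 179) to one of 2942 (SD 689) over 3 arrays each, which is a log2 difference of 1.82 ± 0.25 (SE, 95% confidence interval 1.22 to 2.41, adjusted p = 0.0324). Leaving out wild-type replicate 1, 2 or 3 ended the call, with adjusted p-values of 0.0588, 0.134 and 0.134, as did leaving out mutant replicate 1 (0.120) or 2 (0.0984), while the difference stayed between 1.68 and 2.02 over these settings and the one without mutant replicate 3.

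Ngp encodes neutrophilic granule protein, a cathelin-domain protein stored in the specific granules. Its signal was 140, 462 and 306 in wild type and 1975, 382 and 1398 in mutant. Mutant replicates 1 and 3 were above every wild-type array, and mutant replicate 2 fell between wild-type replicates 2 and 3. The log2 difference was 1.85 ± 0.66 (SE, n = 3 each, 95% confidence interval 0.28 to 3.41, adjusted p = 0.272), and it was 2.54 without mutant replicate 2. Leaving out mutant replicate 1 gave 1.38, and leaving out wild-type replicate 1 gave 1.40.

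Camp encodes the mouse cathelicidin, the precursor of an antimicrobial peptide stored in the same granules. Its signal was 84.2, 385 and 214 in wild type and 1143, 89.0 and 1391 in mutant. Mutant replicate 2 was close to the lowest wild-type array, and the other mutant arrays were higher than all of wild type. The log2 difference was 1.40 ± 1.03 (SE, n = 3 each, 95% confidence interval -1.03 to 3.84, adjusted p = 0.601), and it was 2.61 (adjusted p = 0.154) without mutant replicate 2, 0.73 without mutant replicate 3 and 0.87 without mutant replicate 1 or without wild-type replicate 1.

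S100a8 and S100a9 encode calcium-binding proteins that pair to form calprotectin, the most abundant cytosolic protein of neutrophils, which monocytes and inflamed epithelia also make. The signal of S100a8 was 3415, 4888 and 4068 in wild type and 12455, 15484 and 7345 in mutant. The genotypes did not overlap, and the spread among mutant arrays was wide. The log2 difference of S100a8 was 1.46 ± 0.30 (SE, n = 3 each, 95% confidence interval 0.74 to 2.18, adjusted p = 0.0899). S100a9 read 5997, 8070 and 6456 in wild type and 15014, 19193 and 10777 in mutant, a log2 difference of 1.10 ± 0.25 (SE, 95% confidence interval 0.51 to 1.70, adjusted p = 0.115). Both missed the threshold, and both passed it with a variance prior that follows the signal level and is robust to outlying genes (adjusted p = 0.0153 and 0.0186). The suffix of the S100a8 probe set marks it as one whose probes may match more than 1 transcript.

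Across the 6 arrays S100a8 and S100a9 had a Pearson correlation of 0.997, as a description of arrays that share their genotype difference. The genes lie side by side on mouse chromosome 3, with 0 protein-coding genes between them. Of the 11 other measured S100 genes 0 were called by limma. S100a6 was higher with no overlap of the genotypes (3319, 3940 and 3698 in wild type and 6136, 6067 and 5693 in mutant, log2 difference 0.71, adjusted p = 0.103). Their median difference was 0.17. S100a13 was lower with no overlap (-0.37, adjusted p = 0.444), and S100b (0.43) and S100g (-0.75) were the next by p and also missed the threshold. Of the 11 genes 1 was thus higher and 1 lower with no overlap, where 20.5% of all genes did not overlap in either direction.

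Asprv1 encodes a retroviral-like aspartic protease first known from the upper epidermis and also made by neutrophils. Its signal was 590, 438 and 461 in wild type and 4391, 9591 and 2724 in mutant. Its lowest mutant array was several times the highest wild-type array. Asprv1 rose from a mean of 496 (SD 81.7) to one of 5569 (SD 3582) over 3 arrays each, which is a log2 difference of 3.26 ± 0.44 (SE, 95% confidence interval 2.23 to 4.30, adjusted p = 0.0307), and ranked 10 among all genes by its rise. The call held without mutant replicate 2 (adjusted p = 0.0410) or 3 (0.0308). Leaving out wild-type replicate 1, 2 or 3 ended it (0.0671, 0.134 and 0.127), as did leaving out mutant replicate 1 (0.115). Of 10 measured markers of keratinocytes and squamous cells, the other known source of this protease, 0 were called by limma. Over all genes 0.923% were called, so 0 of 10 is near that share. The source of the Asprv1 signal was not tested. The summed signal of the 10 markers was 1365 to 1435 in wild type and 1295 to 1735 in mutant. Krt14 read 22.3 to 66.3 and 57.2 to 107, Ivl 61.6 to 87.5 and 64.7 to 169, and Lor 33.5 to 48.7 and 45.5 to 74.7, and all 3 overlapped between the genotypes. Of the 10 markers 6 lay above 0 and 4 below, among them, chosen after their values were seen, Krt5 (-0.67) and Krt10 (-0.12), and Krt10 alone gave 835 to 936 of the wild-type sum.

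Cxcr2 encodes the receptor for the chemokines that draw neutrophils out of the marrow and into tissue. Its signal was 319, 577 and 348 in wild type and 1187, 2384 and 792 in mutant, so the groups did not overlap. The means were 415 ± 141 and 1454 ± 829 (SD, n = 3), with a log2 difference of 1.67 ± 0.42 (SE, 95% confidence interval 0.66 to 2.68, adjusted p = 0.141). Csf3r encodes the receptor for granulocyte colony-stimulating factor, which drives neutrophil production and release. It read 134, 231 and 204 in wild type and 356, 699 and 271 in mutant, a log2 difference of 1.08 ± 0.37 (SE, 95% confidence interval 0.20 to 1.95, adjusted p = 0.255). The lowest mutant array of Csf3r was little above the highest wild-type array, and neither receptor gene was called. Without mutant replicate 2 the difference was 1.24 for Cxcr2 and 0.70 for Csf3r.

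The mutant arrays fell in different orders for the granule genes and the receptors. Relative to the wild-type mean, the log2 signal of Cxcr2 was 1.53, 2.53 and 0.96 in mutant replicates 1 to 3 and that of Csf3r 0.89, 1.83 and 0.51. For Ngp the values were 2.79, 0.46 and 2.29, and for Camp 2.47, -0.998 and 2.75. Mutant replicate 2 was thus the highest mutant array for both receptors and the lowest for Ngp and Camp. It was the highest in 34.7% and the lowest in 38.6% of all genes, so either place alone is common. S100a8, S100a9 and Asprv1 followed the order of the receptors, with mutant replicate 2 highest and replicate 3 lowest in all 5 genes. This order was seen in 16.7% of all genes. It was seen in 22.2% of the 1899 genes that, like these 5, were higher in mutant with no overlap. Ltf, at 2.09, 1.95 and 1.41, did not share the fall of the other granule genes in mutant replicate 2. Among wild-type arrays the spread was smaller, and wild-type replicate 2 was the highest for Ngp, Camp, S100a8, S100a9, Cxcr2 and Csf3r but not for Ltf or Asprv1.

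**Figure D2:**
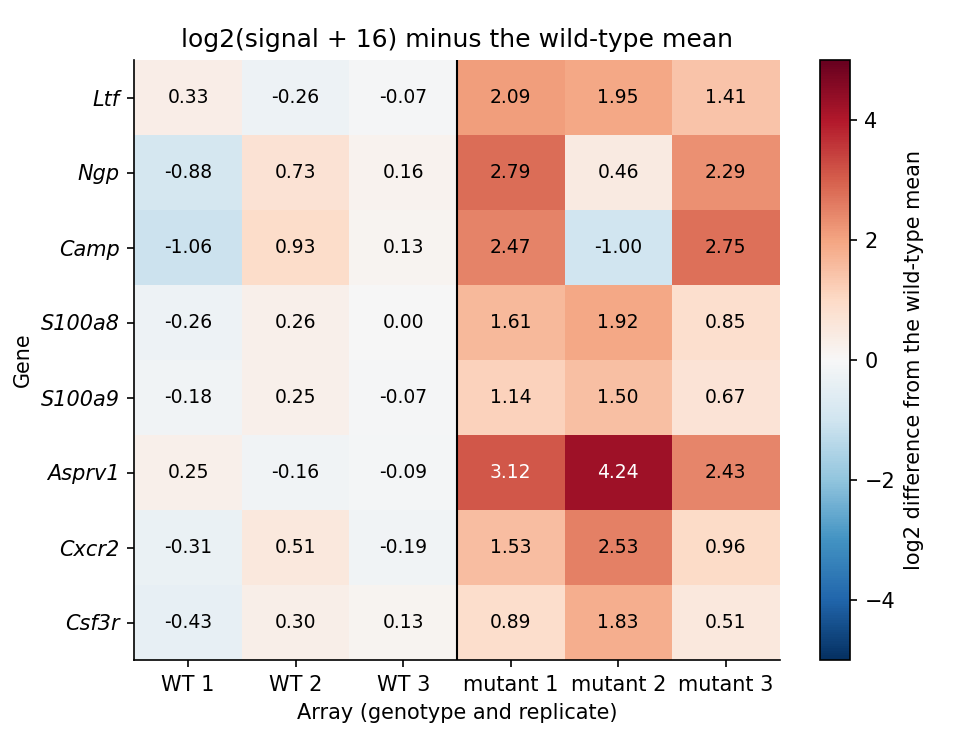
Each cell gives log2(signal + 16) of a gene (row) on an array (column) minus that gene's mean over the 3 wild-type arrays, on a colour scale from blue (lower) to red (higher). Camp is at -0.998 in mutant replicate 2, where Asprv1 is at 4.24 and Cxcr2 at 2.53.

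Averaged over Ltf, Ngp and Camp, the log2 difference from the wild-type mean was 2.45, 0.47 and 2.15 in mutant replicates 1 to 3. Averaged over Cxcr2 and Csf3r it was 1.21, 2.18 and 0.73. The granule average minus the receptor average was therefore 1.24, -1.70 and 1.41 in the mutant arrays and -0.17, 0.06 and 0.10 in the wild-type arrays. Its mean in mutant was 0.32 ± 1.75 (SD, n = 3), a difference between the gene groups smaller than the spread between mutant arrays. Its sign turned without mutant replicate 1 (-0.15) or mutant replicate 3 (-0.23), and it was 1.33 without mutant replicate 2. The receptor average rests on 2 genes, since Fpr1 was not measured.

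**Figure D3:**
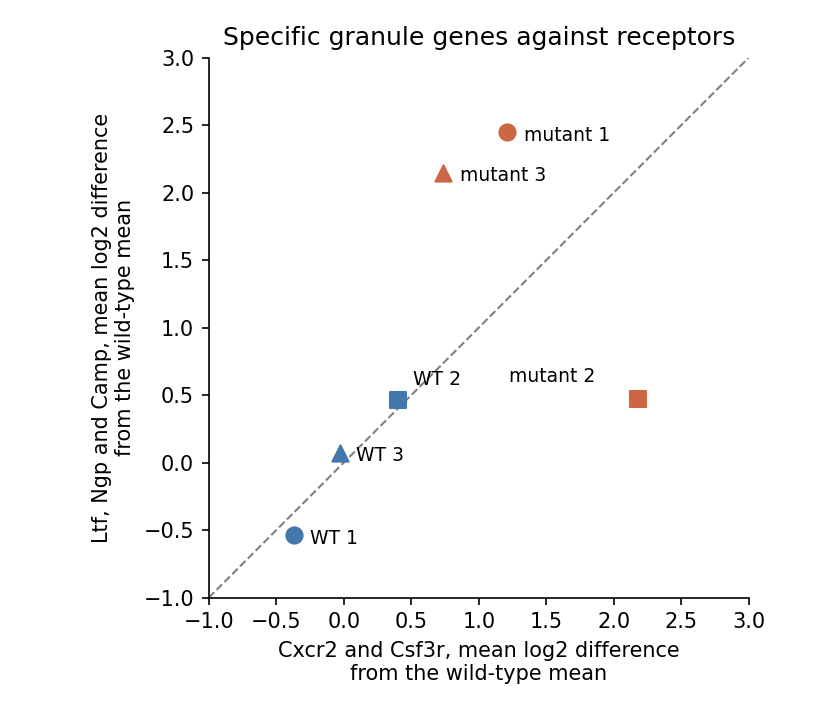
Mean log2 difference from the wild-type mean on each array, for Ltf, Ngp and Camp (vertical) against Cxcr2 and Csf3r (horizontal), with the dashed line marking equal differences. The wild-type arrays lie close to the line (-0.17 to 0.10, vertical minus horizontal), mutant replicates 1 and 3 above it (1.24 and 1.41) and mutant replicate 2 below it (-1.70).

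Correlations over the 6 arrays, which share the genotype difference and the array scale, paired Ngp with Camp. They set both receptors beside S100a8 and S100a9, with Ltf apart from the other granule genes. Ngp and Camp correlated at 0.919, and Cxcr2 and Csf3r at 0.972. Cxcr2 correlated at 0.989 with S100a9 and 0.976 with S100a8, and Csf3r at 0.950 with S100a9 and 0.942 with S100a8. Camp correlated at 0.128 with Cxcr2 and at 0.040 with Csf3r. Ltf correlated at 0.967 with Asprv1, 0.907 with S100a8, 0.837 with Cxcr2 and 0.750 with Csf3r, and at 0.621 with Ngp and 0.308 with Camp.

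The promoters of the 3 granule genes and the 2 receptor genes are shown because Ngp and Camp parted from the receptors in mutant replicate 2 while Ltf did not. Each run is the 250 bases upstream of the gene's start in RefSeq (GRCm38.p6), read 5′ to 3′ on the gene's strand, and all 10 listed genes were found in that table. Capitals mark matches on either strand to TTGCNNAA, a core bound by C/EBP factors, or to GAGGAA, a core bound by PU.1 and other ETS factors. TATAAA was also searched. Ltf lies at chr9:111019042-111019291 (plus strand), Ngp at chr9:110419558-110419807 (plus), Camp at chr9:109849457-109849706 (minus), Cxcr2 at chr1:74153744-74153993 (plus) and Csf3r at chr4:126024409-126024658 (plus).
Ltf: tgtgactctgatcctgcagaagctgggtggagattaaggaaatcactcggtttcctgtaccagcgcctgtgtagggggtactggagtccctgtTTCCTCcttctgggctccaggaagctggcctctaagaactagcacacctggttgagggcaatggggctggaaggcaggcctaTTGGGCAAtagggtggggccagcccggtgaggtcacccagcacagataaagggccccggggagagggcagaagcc
Ngp: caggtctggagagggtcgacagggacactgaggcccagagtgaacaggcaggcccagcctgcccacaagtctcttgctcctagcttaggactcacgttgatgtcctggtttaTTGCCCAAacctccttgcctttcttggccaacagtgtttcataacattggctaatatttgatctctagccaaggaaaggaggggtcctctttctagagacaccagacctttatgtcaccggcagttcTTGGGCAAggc
Camp: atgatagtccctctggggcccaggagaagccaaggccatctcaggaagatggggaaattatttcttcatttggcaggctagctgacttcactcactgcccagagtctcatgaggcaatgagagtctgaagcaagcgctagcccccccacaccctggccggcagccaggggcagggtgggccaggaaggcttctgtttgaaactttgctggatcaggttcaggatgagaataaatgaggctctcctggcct
Cxcr2: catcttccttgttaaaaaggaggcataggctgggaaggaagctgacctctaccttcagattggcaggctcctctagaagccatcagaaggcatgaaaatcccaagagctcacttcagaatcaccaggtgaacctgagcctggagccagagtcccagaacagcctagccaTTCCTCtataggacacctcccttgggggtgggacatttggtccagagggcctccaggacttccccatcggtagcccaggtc
Csf3r: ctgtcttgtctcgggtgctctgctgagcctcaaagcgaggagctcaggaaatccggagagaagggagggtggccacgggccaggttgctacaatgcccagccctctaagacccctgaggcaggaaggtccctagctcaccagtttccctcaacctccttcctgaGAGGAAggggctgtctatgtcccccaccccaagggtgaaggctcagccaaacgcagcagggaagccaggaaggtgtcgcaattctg

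TTGCNNAA occurred 1 time in the Ltf run, 75 to 68 bases before the start, and 2 times in the Ngp run, at 138 to 131 and at 11 to 4 bases before it. It was not found in the runs of Camp, Cxcr2 or Csf3r, and 9.56% of 32851 promoters held it in a window of this length. Of the other listed genes, S100a9 held TTGCNNAA 236 to 229 bases and Retnlg 246 to 239 bases before the start. GAGGAA occurred 1 time each in Ltf, Cxcr2 (81 to 76 bases before the start) and Csf3r (86 to 81 bases) and not in Ngp or Camp, against 23.3% of all promoters. S100a8 held GAGGAA 2 times, at 170 to 165 and at 36 to 31 bases before the start. TATAAA was in none of these 5 runs and in 12.4% of all promoters, and of the other listed genes S100a8 held it 30 to 25 bases and Fpr1 227 to 222 bases before the start. No match overlapped another. These are matches of letters and say nothing of binding.

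Camp, Ngp and Ltf lie in this order on chromosome 9, with 8 protein-coding genes between Camp and Ngp and 20 between Ngp and Ltf. Of the 42 genes that were the 3 nearest measured neighbours on either side of a measured member and no members themselves, 0 were called by limma. Their differences ran from -0.997 to 0.71 with a median of 0.032.

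Other neutrophil genes were taken from lists by stage and role. Of 12 measured genes of the specific and gelatinase granules, Mmp8 and Lcn2 rose and 0 fell, 10 of the 12 lay above 0, and the median log2 difference was 0.96. Mmp8, a collagenase of the specific granules, read 143, 188 and 176 in wild type and 691, 616 and 463 in mutant (log2 difference 1.70, adjusted p = 0.0243). Lcn2, a siderophore-binding protein that epithelia also make, read 559, 529 and 894 in wild type and 6586, 3054 and 3505 in mutant (2.66, adjusted p = 0.0284). Both kept the genotypes apart in every array, mutant replicate 2 included. The gelatinase gene Mmp9 (1.53, adjusted p = 0.186) and the surface protein gene Cd177 (1.70, adjusted p = 0.201) did not overlap between the genotypes and missed the threshold, and both were highest in mutant replicate 2, at 2185 and 2350. Mutant replicate 2 was the lowest mutant array in 3 of the 12 genes and the highest in 5, so the list did not share 1 order. Among genes chosen after their values were seen, Fcnb, a ficolin of immature neutrophils, was lowest in mutant replicate 2. It read 2.53, 25.4 and 25.5 in wild type and 80.9, 9.57 and 55.5 in mutant (log2 difference 0.82, adjusted p = 0.561). Its signal was dim, and the 9.57 is below the offset of 16. Olfm4, a specific granule protein of a subset of neutrophils, was lowest in mutant replicate 3. It read 32.4 to 88.8 in wild type and 534, 438 and 57.9 in mutant (log2 difference 2.02, adjusted p = 0.296).

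Enzymes of the primary granules, made before the stage of the listed genes, were at low signal in both genotypes. Mpo read 37.3, 108 and 47.8 in wild type and 53.6, 91.1 and 91.0 in mutant (log2 difference 0.31, adjusted p = 0.758). Elane read 1.85 to 22.2 and 1.08 to 19.6 (-0.25, adjusted p = 0.830) and Prtn3 6.70 to 19.5 and 11.1 to 69.3 (0.72, adjusted p = 0.503). The list also held Gfi1, a repressor needed for the granulocyte fate and also expressed in lymphocytes, which read 337 to 614 in wild type and 118 to 178 in mutant (-1.52, adjusted p = 0.0636). Of 6 measured genes of this list 0 were called by limma, and the median was -0.026.

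Of 12 other products of mature neutrophils, the stefin genes Stfa3 and Stfa2l1, which encode cysteine protease inhibitors, rose, and 0 fell. Stfa3 read 9.05 to 16.2 in wild type and 3494, 4695 and 938 in mutant (6.42, adjusted p = 0.01004), a rise whose size depends on the offset because the wild-type signal is close to or below it. Stfa2l1 read 169 to 175 and then 5799, 11502 and 1327 (4.57, adjusted p = 0.0442). Their mutant arrays had the order of Asprv1 and the receptors. Wfdc17 (1.79, adjusted p = 0.0624) and Slfn4 (1.66, adjusted p = 0.186) had it too and missed the threshold. The median of the list was 0.67.

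Other receptor and adhesion genes of neutrophils had small differences on the whole. Such genes are not all particular to neutrophils, so their median does not describe neutrophils alone. Of 19 measured, 0 were called by limma, 13 lay above 0 and the median was 0.13. Clec4d, a lectin receptor of myeloid cells, read 4194, 4904 and 3316 in wild type and 7568, 8934 and 5759 in mutant (0.84, adjusted p = 0.178). Ltb4r1, the leukotriene B4 receptor, differed by 0.89 (adjusted p = 0.200) and the integrin gene Itgam by 1.06 (adjusted p = 0.229). These 3 of the 19 genes were higher with no overlap of the genotypes, against 10.4% of all genes. Tlr2 was lower with no overlap (-0.52, adjusted p = 0.230), and 20.5% of all genes did not overlap in either direction. Fpr2, a formyl peptide receptor related to Fpr1 and chosen after its values were seen, read 2807 to 5453 in wild type and 3359 to 4114 in mutant (-0.14, adjusted p = 0.870). Mutant replicate 2 was the highest mutant array in 15 of these 19 genes, against 34.7% of all genes, and 9 of the 19 had the full order of Cxcr2 and Csf3r, against 16.7% of all genes. Whether the list differs from these receptors was not tested.

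**Figure D4:**
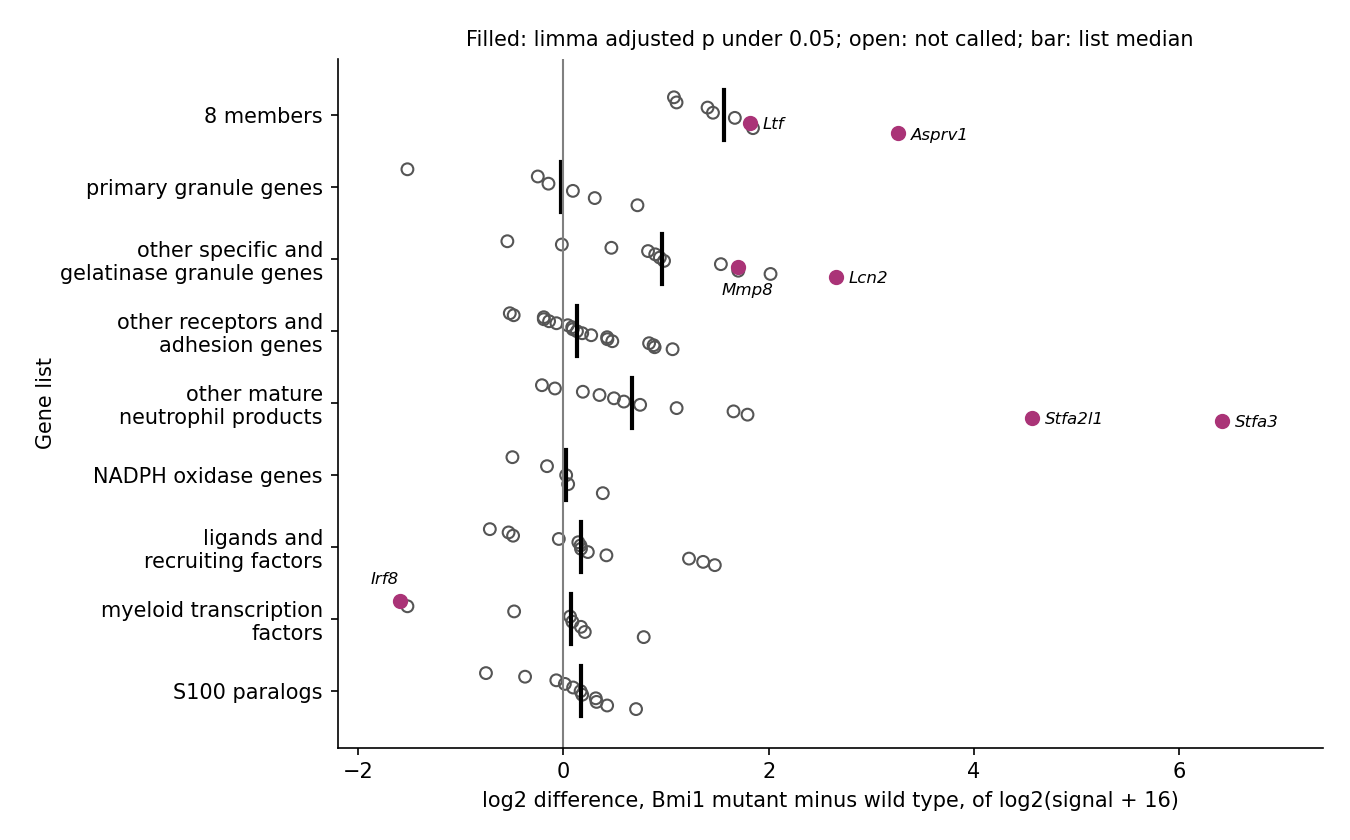
Log2 difference (mutant minus wild type, horizontal) of each measured gene of 9 lists (vertical), filled where limma's adjusted p was under 0.05, with a bar at the list median. The 8 members lie between 1.08 and 3.26. The primary granule list has a median of -0.026 (-1.52, the repressor gene Gfi1, to 0.72). The other receptors, not all particular to neutrophils, have one of 0.13 (-0.52 to 1.06).

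Ligands of the receptors, and factors that recruit neutrophils, held no called gene among 12 measured by limma. Cxcl5, a ligand of Cxcr2, read 79.6, 141 and 143 in wild type and 909, 217 and 222 in mutant (1.48, adjusted p = 0.290). Of other chemokines of its family, chosen after their values were seen, Cxcl1 (0.17, adjusted p = 0.740), Cxcl2 (-0.044, adjusted p = 0.941) and Cxcl3 (-0.49, adjusted p = 0.752) overlapped between the genotypes and Cxcl15 (0.15, adjusted p = 0.715) was higher with no overlap. Csf3, the ligand of Csf3r and also chosen after its values were seen, read 4.00 to 18.8 in wild type and 4.51 to 31.8 in mutant. Il6 (1.22, adjusted p = 0.198), Anxa1, a ligand of formyl peptide receptors (0.42, adjusted p = 0.282), and Ppbp, a further ligand of Cxcr2 (1.36, adjusted p = 0.412) missed the threshold. Of the 12 genes 4 (Il6, Anxa1, Cxcl5 and Cxcl15) were higher with no overlap of the genotypes, against 10.4% of all genes. With no overlap 0 were lower, and 20.5% of all genes did not overlap in either direction. The list median was 0.17.

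Among 8 measured myeloid transcription factors, Irf8 fell and 0 rose. Irf8, which favours the monocyte and dendritic cell fates over the granulocyte fate and is also made by B cells, read 2764, 3525 and 3354 in wild type and 838, 1280 and 1070 in mutant (-1.60, adjusted p = 0.0303). Cebpd, a C/EBP factor of later granulocytes and of inflamed tissue, read 2095 to 2543 and 3941 to 4259 (0.78, adjusted p = 0.0852). Runx1 differed by -0.48 (adjusted p = 0.263). The 5 measured subunits of the NADPH oxidase, which gives neutrophils and macrophages their oxidative burst, had 0 calls by limma and a median of 0.027, with Cybb at -0.50 (adjusted p = 0.318) and Ncf4 at 0.38 (adjusted p = 0.587). Of the resistin-like genes related to Retnlg, Retnla read 7778, 3648 and 3525 in wild type and 10358, 13033 and 8982 in mutant (1.20, adjusted p = 0.178), while Retn and Retnlb were dim.

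Markers of other blood cells moved in the same arrays, and their part in the values above was not tested. Of 11 measured monocyte and macrophage markers, Siglecf fell (-2.19, adjusted p = 0.0354) and 0 rose, 4 lay above 0 and 7 below, and their summed signal was 28944 to 36836 in wild type and 24088 to 33412 in mutant. C1qa was higher with no overlap (101 to 320 and 405 to 1051, log2 difference 1.62, adjusted p = 0.209), and Itgax (-0.99, adjusted p = 0.0763) and Mertk (-0.76, adjusted p = 0.0952) were lower with no overlap. Mutant replicate 2 had the highest mutant signal in 9 of these 11, as in most genes of the mature neutrophil lists. The full order of Cxcr2 and Csf3r held in 1 of the 11, against 16.7% of all genes. It held in 9 of the 19 other receptor and adhesion genes and in 7 of the 12 other mature products. Of 7 lymphocyte markers, 5 (Ms4a1, Ncr1, Cd79a, Gzma and Cd8a) fell, and all 7 lay below 0. Their summed signal was 14023 to 21328 in wild type and 3883 to 6130 in mutant. Gzma alone gave 7557 to 11649 of the wild-type sum and 1227 to 3034 of the mutant sum. Of 10 markers of eosinophils, basophils and mast cells, Il5ra fell (-1.99, adjusted p = 0.0153), their sum was 805 to 1132 and 617 to 708, and the eosinophil peroxidase gene Epx, chosen after its values were seen, was near 0 in both genotypes (0.79 to 10.7 and 1.83 to 3.49).

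Of 5 erythroid and platelet markers, Pf4, a platelet chemokine, rose (1.87, adjusted p = 0.0376) and 0 fell, with sums of 692 to 1069 and 2415 to 4068 that are mostly Pf4 (2354 to 3942 in mutant). The platelet receptor genes Gp9 (-0.31, adjusted p = 0.725) and Itga2b (0.085, adjusted p = 0.922) were dim and overlapped between the genotypes. The erythroid gene Alas2 stood out in mutant replicate 3, at 643, against 23.2 and 60.3 in the other mutant arrays and 35.1 to 65.3 in wild type. Camp was highest on that array too, and whether the signals are related was not tested. The 6 fibroblast markers, which the gate keeps, had sums of 15551 to 26658 in wild type and 32584 to 36095 in mutant, with Col1a1 called (1.37, adjusted p = 0.0482), and the 5 markers of alveolar type 2 and club cells had sums of 53732 to 61996 and 57814 to 64687 with 0 called by limma.

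The genes whose signal over the 6 arrays was most like the mean of the 8 members were named by Pearson correlation, among 1207 genes whose log2 signal ranged over at least 2. They were Hoxd9 (0.994), Tmc5 (0.994), Mmp8 (0.993), Hoxa9 (0.988), Mmp12 (0.980), Cirbp (0.976), Ccl12 (0.976) and Hoxa10 (0.975). The mean of the members was -0.32, 0.32 and -0.0016 in wild type and 1.95, 1.68 and 1.48 in mutant, a profile that steps between the genotypes and differs less among the mutant arrays than the granule or the receptor average alone. Mmp8 is the one neutrophil granule gene among the 8.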

How the data were processed

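The authors deposited linear probe-set intensities from 6 Affymetrix Mouse Genome 430 2.0 arrays. The submitters' processing notes name Expression Console 1.1 for this step, while the summarization, background correction and detection calls behind the intensities remain unknown here. RNA was amplified to cDNA before labelling, per the labels' protocols. The arrays share 1 trimmed mean, and a shift of all genes together would not show.

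Of 45101 probe sets, 64 controls were left out and 34945 carried 1 gene symbol in the platform annotation. For each of 18193 genes the probe set with the highest mean represented it. The intensities were taken as log2(signal + 16), which understates folds of dim genes. The genotypes were compared with limma 3.58.1 (lmFit, eBayes; R 4.3.3) without covariates, and p-values were adjusted by Benjamini-Hochberg over the 18193 genes. The prior had 2.93 degrees of freedom. On simulated arrays with 200 of 18193 genes changed in each of 5 sets, 25.4%, 71.6% and 87.0% of changes of 1, 2 and 3 (log2) were recovered. Precision is limited by having 3 arrays a genotype.

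The members and lists were chosen with earlier results of these data known. Named were all members, Bmi1, Ptprc and Pecam1, and in each other list the called genes and up to 4 with the smallest p. Of the marker lists some of these are given only by count. Genes outside the rule are marked as chosen after their values were seen. Alternatives were other offsets, scalings, filters, probe-set summaries and priors, weights per array, a replicate block and each array left out. Plots were drawn with matplotlib 3.10.9.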

Additional observations from a re-analysis of the deposited data

How the results depend on the processing

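All 8 members stayed above 0 in each of 16 alternatives, and their median difference ran from 1.37 to 1.78. The count of called genes, 168 in the reported fit, was 33 with an offset of 1, 265 with an offset of 64, 308 among genes with a mean signal of at least 100, 438 with the trended and robust prior, and 2 to 76 with 1 array left out. Called members, 2 in the reported fit, were 0 with an offset of 1 (7 at an unadjusted limma p under 0.05), 4 with the trended and robust prior and 0 to 2 with 1 array left out. With the replicate block limma called 0 genes (2611 at an unadjusted p under 0.05) and 0 members (6 at an unadjusted p under 0.05), with the same differences. Arrays of one replicate number had deviations from their group means that correlated at 0.032 to 0.073, so the numbers were not treated as pairs. With an offset of 1 the adjusted p was 0.0876 for Ltf and 0.0850 for Asprv1. The granule minus receptor difference of 0.32 ran from -0.23 to 1.33 with 1 array left out, below 0 without mutant replicate 1 (-0.15) or 3, and it was 0.73 with array weights. Over the 16 alternatives Ltf lost its call in 7 and Asprv1 in 6, with adjusted p-values of up to 0.134. Quantile normalization and median centring changed no call of a member. Signals over background cannot be judged without detection calls.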
